A study of Mus musculus with 30 samples.

Results

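Cytochrome P450 genes of families 1 to 4 were examined in the small intestine of mice lacking Rb, or Rb together with Myc. The members are the genes whose probe set on the array carries a single symbol of the form Cyp, a family number from 1 to 4, a subfamily letter and a gene number. By this rule 54 of the 18194 genes with a probe set of their own were P450 members, and where a gene had several probe sets the one with the highest mean over the 30 arrays was taken. Of the 54 members, 30 passed the filter on low values, a mean above 6.03 on the log2 scale, and 24 did not. The nearest members on either side of that limit were Cyp2c39, with a mean of 6.10, and Cyp2c54 and Cyp1a2, both at 6.01.

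The mice were adults aged 2 months, and tissue was taken 5 days after the genes were ablated. There were 3 genotypes: a double knockout of Rb and Myc (Rb/Myc DKO), a knockout of Rb alone (Rb KO), and controls. Villi and crypts of each genotype were profiled as total RNA, with 5 arrays in each of the 6 groups. Deletion was driven by Ah-cre, an inducible Cre that the labels describe as specific to the intestine. As background, that transgene uses a promoter of Cyp1a1, itself a member of the family described here, which is switched on by ligands of the aryl hydrocarbon receptor. The inducing agent, and whether the controls carried Cre or received that agent, are not given in the labels. The labels number the arrays within a group and do not say that each is a separate animal, so p-values measure the spread between these samples.

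P450 enzymes are haem-containing monooxygenases of the endoplasmic reticulum, which take electrons from cytochrome P450 reductase and oxidise drugs, dietary compounds, steroids and fatty acids. Members of families 1 to 3 are best known for xenobiotic metabolism and are regulated by the aryl hydrocarbon receptor, PXR and CAR, and family 4 mainly hydroxylates fatty acids and eicosanoids. In the intestine they are found chiefly in the absorptive enterocytes of the villus, where they meet ingested compounds first.

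All 8 measured enterocyte markers had a higher median in the villus values and all 9 crypt markers a higher median in the crypt values, although the tissues appear to have been normalized separately, judged from the array medians. Olfm4, a crypt stem cell marker, ranged from 13.67 to 14.21 in crypt arrays and from 8.58 to 11.86 in villus arrays. The targeted genes checked the labels. Rb1 averaged 8.27 ± 0.06 in Rb KO villi and 9.73 ± 0.45 in control villi (SD, n = 5 each), a fall of 1.46 on the log2 scale, and it fell by 1.26 in Rb/Myc DKO villi against control villi. Myc fell by 1.64 in Rb/Myc DKO crypts against control crypts (limma adjusted p = 4.22e-06), whereas its difference in Rb/Myc DKO villi was -0.52 ± 0.21 against Rb KO villi (adjusted p = 0.143) and -0.30 against control villi (adjusted p = 0.35).

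One array stood apart. In Rb/Myc DKO villi array 1, all 8 hepatocyte markers were above the other 14 villus arrays, with albumin (Alb) at 11.65 there and at 5.98 to 6.51 elsewhere. In the same array 12 of the 54 P450 members exceeded all other villus arrays, 5 of them by 1 or more on the log2 scale. Cyp2e1, an ethanol-oxidising enzyme abundant in liver, stood at 10.03 there and between 5.37 and 5.97 in the other villus arrays. Cyp2f2 reached 7.37, Cyp2d9 7.22, Cyp2d10 6.44 and Cyp2c70 8.48 in that array. The crypt array of the same number had 5 of 8 hepatocyte markers above the other crypt arrays, with Alb at 8.55. The differences called in Rb/Myc DKO villi for P450 members past the filter are given below with and without this array. So are the counts for lists of receptors, PPAR-alpha targets and P450 partners. Counts of cell type markers, and the differences of Cyp2r1, are given only with it. The part of liver transcripts in any of these was not tested.

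**Figure D1:**
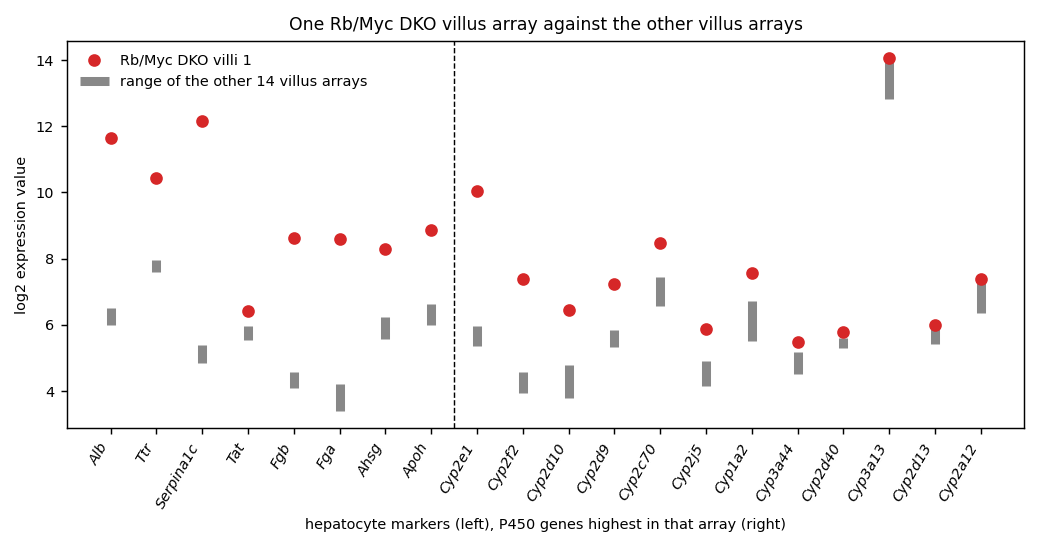
Log2 expression values of the 8 hepatocyte markers (left of the dashed line) and of the 12 P450 genes that were highest in Rb/Myc DKO villi 1 (right). Points are that array and grey bars are the range of the other 14 villus arrays; Cyp2e1 lies at 10.03, above a range that ends at 5.97.

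Rb loss in villi was accompanied by lower P450 expression. Of the 30 members tested, 12 were lower in Rb KO villi than in control villi and 0 were higher at a limma adjusted p under 0.05, which is 40% of the members, while 34.3% of all 12736 genes tested passed in either direction. Of all genes 17.5% were lower and 16.8% were higher, so the members' share lay above the background among lower genes and below it among higher ones. In 7 members every Rb KO array was below every control array, where 20.7% of all genes were apart in either direction. At an unadjusted p under 0.05 the members split into 15 lower and 1 higher. The median difference over the 30 members was -0.31 on the log2 scale, against -0.02 over all genes. The 12 lower genes came from 3 families, with 8 of 18 tested in family 2, 1 of 3 in family 3 and 3 of 7 in family 4. In these tissue samples, fewer cells of a type and less RNA per cell cannot be told apart.

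The Cyp2c subfamily held the largest of these differences. All 11 Cyp2c members lie on chromosome 19, and the enzymes hydroxylate or epoxidise drugs and arachidonic acid. Of 8 tested, 5 fell in Rb KO villi. Cyp2c55, which in mouse gut oxidises arachidonic acid, had values of 8.47, 9.12, 8.92, 9.76 and 9.35 in Rb KO villi, against 10.77, 10.93, 10.74, 10.31 and 12.00 in control villi. Every Rb KO array lay below every control array. The difference was -1.83 ± 0.29 (log2, SE), a 3.55-fold lower level (limma adjusted p = 0.000199), and it was called under every alternative setting run.

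The promoter sequences of the 3 Cyp2c genes that changed in both villus comparisons below are shown because these genes are neighbours on chromosome 19. Each run is the 250 bases before the start site of the gene's promoter entry, 5′ to 3′ on the plus strand, from RefSeq on build GRCm38.p6. The RefSeq gene spans of Cyp2c55 and Cyp2c29 begin at 39006940 and 39287044, inside these windows. That of Cyp2c65 begins at 39061006, just after its window. Cyp2c55 lies at chr19:39006769-39007018, Cyp2c65 at chr19:39060756-39061005 and Cyp2c29 at chr19:39286835-39287084. Capitals mark matches to the motifs searched.
Cyp2c55: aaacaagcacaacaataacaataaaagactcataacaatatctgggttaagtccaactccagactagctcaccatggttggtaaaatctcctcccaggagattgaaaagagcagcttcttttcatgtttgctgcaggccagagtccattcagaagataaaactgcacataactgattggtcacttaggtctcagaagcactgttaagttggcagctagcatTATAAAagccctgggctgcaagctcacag
Cyp2c65: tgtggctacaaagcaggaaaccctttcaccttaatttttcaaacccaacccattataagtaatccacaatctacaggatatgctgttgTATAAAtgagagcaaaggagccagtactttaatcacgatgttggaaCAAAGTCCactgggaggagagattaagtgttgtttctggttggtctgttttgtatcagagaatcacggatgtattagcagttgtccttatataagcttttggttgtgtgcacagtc
Cyp2c29: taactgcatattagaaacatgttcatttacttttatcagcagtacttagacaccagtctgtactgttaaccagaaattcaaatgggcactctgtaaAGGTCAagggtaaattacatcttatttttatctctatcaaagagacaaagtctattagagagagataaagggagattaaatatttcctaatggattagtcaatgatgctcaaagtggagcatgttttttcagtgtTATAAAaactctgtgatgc
All 3 windows hold the letters TATAAA, with the match beginning at -29 in Cyp2c55 and -19 in Cyp2c29, where a TATA box lies, but at -162 in Cyp2c65. Cyp2c65 also holds CAAAGTCC, a site of the enterocyte factor HNF4, and Cyp2c29 holds AGGTCA, the half-site of nuclear receptors. None of the 3 holds the E2F site TTTNNCGC or the Myc E-box CACGTG.

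Across the family, 43 of the 54 members had a RefSeq promoter entry, which runs from 250 bases before the start site to 50 after it, and both strands were searched. TATAAA was in the windows of 18 of the 43 members and in 13.6% of all 32851 windows. CAAAGTCC was found for 6 members, Cyp2c65, Cyp2c68, Cyp2c70, Cyp3a11, Cyp3a16 and Cyp4f18, and in 1.42% of all windows. AGGTCA was found for 12 members and in 16.3% of all windows, and the dioxin response core GCGTG for 11 members and in 32.4%. The E2F letters were found for 1 member, Cyp4f39, and in 5.17% of all windows, and the E-box for Cyp2j6 and Cyp4v3 and in 7.15%. These are matches of letters in a window and not evidence of binding.

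Cyp2c65, a Cyp2c gene expressed in mouse gut, was at 12.85, 13.27, 12.99, 13.28 and 13.03 in Rb KO villi, against 13.45, 13.56, 13.64, 13.27 and 13.73 in control villi. The groups met at a single control array, and the difference was -0.44 ± 0.10 (limma adjusted p = 0.00227). Its probe set belongs to the kind whose probes are shared between related transcripts, so a neighbouring Cyp2c transcript could add to its values. The probe sets taken for Cyp2b10, Cyp2c23 and Cyp4v3, whose differences follow below, are of the same kind. Cyp2c29, an arachidonic acid epoxygenase induced through CAR in mouse liver, spread more widely, with 6.38, 7.90, 8.24, 8.78 and 8.64 in Rb KO villi, against 8.60, 9.23, 9.52, 8.36 and 9.87 in control villi. These ranges overlapped, and the difference of -1.13 ± 0.41 lay close to the threshold (adjusted p = 0.0456). It lost the call under 13 of 27 alternative settings, and over all of them the difference ran from -1.61 to -0.73. Cyp2c38 fell by 0.43 ± 0.12 (adjusted p = 0.00941) with no overlap between the groups, and Cyp2c68 fell by 0.31 ± 0.09 (adjusted p = 0.0141), also without overlap.

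In family 4, Cyp4f13 and Cyp4f15, members of a subfamily that hydroxylates leukotrienes and long-chain fatty acids, and Cyp4v3, the mouse counterpart of the human retinal disease gene CYP4V2, were lower in Rb KO villi. Cyp4f13 was at 9.08, 9.21, 9.14, 9.17 and 8.98 in Rb KO villi, against 9.60, 10.98, 9.96, 10.42 and 10.82 in control villi. All Rb KO arrays were below all controls and lay within a narrow band, whereas the controls were spread over more than 1 log2 unit. The difference was -1.24 ± 0.24, or 2.36-fold (limma adjusted p = 0.00102). Cyp4f15 had 7.22, 7.79, 7.17, 7.20 and 6.94 in Rb KO villi, against 7.64, 8.73, 8.24, 8.04 and 7.66 in control villi, and 1 Rb KO array overlapped the controls. It fell by 0.80 ± 0.19 (adjusted p = 0.00427). Cyp4v3 fell by 0.68 ± 0.08 (adjusted p = 2.09e-05) without overlap, and a second probe set of the gene gave -0.97 (adjusted p = 7.39e-06). The leukotriene hydroxylase gene Cyp4f14 and its neighbour Cyp4f16 did not pass (0.17, adjusted p = 0.26, and 0.34, adjusted p = 0.098).

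**Figure D2:**
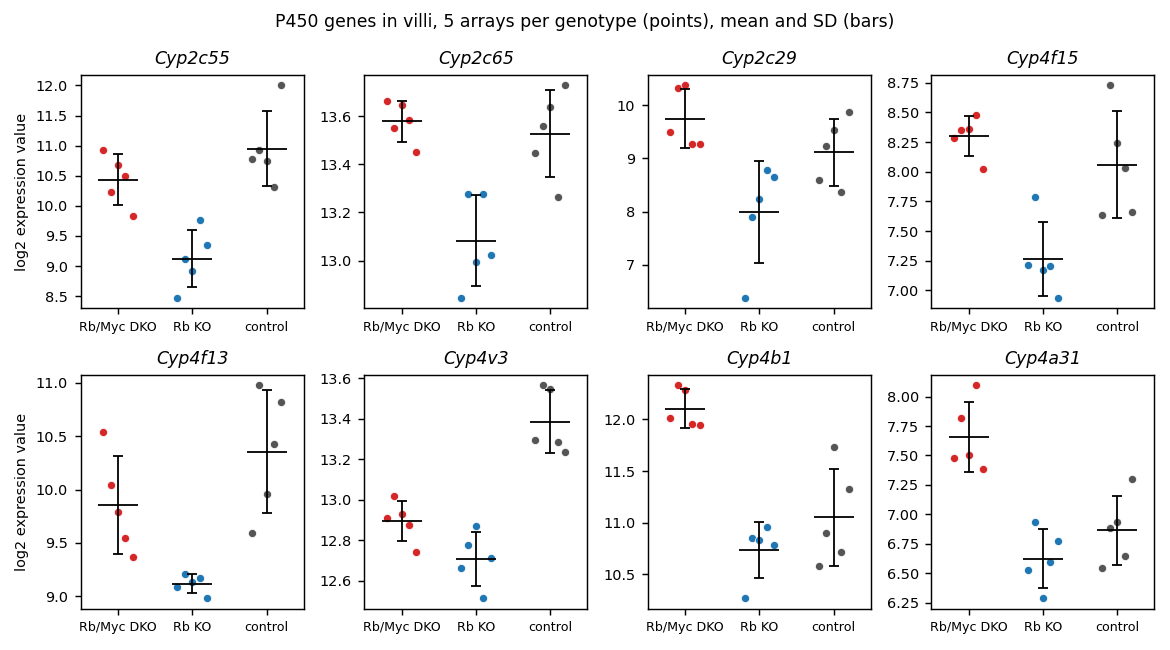
Log2 expression values of 8 P450 genes in villi, with 1 point per array, and the mean and SD of 5 arrays per genotype as bars. Cyp2c55 and Cyp4f13 show Rb KO arrays below all control arrays, and Cyp4b1 and Cyp4a31 show Rb/Myc DKO arrays above all Rb KO and control arrays; each panel has its own axis.

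The drug-metabolising Cyp3a genes did not move together. Cyp3a25 was at 13.12, 13.52, 13.12, 13.49 and 13.26 in Rb KO villi, against 13.86, 13.88, 13.88, 13.78 and 13.77 in control villi, with no overlap, and it fell by 0.53 ± 0.11 (limma adjusted p = 0.00163). Cyp3a11, the mouse gene most often compared with human CYP3A4, averaged 14.07 ± 0.15 in Rb KO villi and 14.23 ± 0.10 in control villi (SD, n = 5 each), with a difference of -0.16 and a 95% interval from -0.35 to 0.03 (adjusted p = 0.192). Cyp3a13 differed by 0.24, with an interval from -0.18 to 0.67 (adjusted p = 0.372). The remaining lower genes were Cyp2d26 at -0.39 ± 0.09, the CAR-induced Cyp2b10 at -0.38 ± 0.11 and the bile acid hydroxylase gene Cyp2a12 at -0.41 ± 0.14 (limma adjusted p = 0.0024, 0.0168 and 0.0269). Cyp2b10 had 2 further probe sets, and both gave the same direction and passed.

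Cyp1a1, the aryl hydrocarbon receptor target that oxidises planar aromatic compounds, varied too much within groups to be called. It stood at 12.08, 11.76, 10.88, 10.81 and 10.79 in Rb/Myc DKO villi, at 10.96, 10.55, 11.38, 10.11 and 9.63 in Rb KO villi, and at 10.35, 12.27, 12.15, 10.43 and 12.38 in control villi. The controls fell into a lower pair and a higher trio, and their range overlapped those of both mutants. By the sex read from Xist values, the lower pair, arrays 1 and 4, were female and the trio, arrays 2, 3 and 5, male. Arrays 4 and 5 of Rb/Myc DKO villi, the lowest there, were female, but so was array 3 of Rb KO villi, the highest there. No test between the sexes was made for Cyp1a1. The difference between Rb KO and control villi was -0.99 ± 0.45 (limma adjusted p = 0.102), and its within-group SD of 0.80 in villi exceeded that of 99.5% of genes. In crypts its within-group SD was 0.87 and none of its 3 differences passed, the largest being -0.86 ± 0.48 between Rb/Myc DKO and Rb KO crypts (adjusted p = 0.261). Of 3 other aryl hydrocarbon receptor targets tested, 1 passed anywhere: Slc7a5, an amino acid transporter gene, was lower in Rb/Myc DKO crypts by 0.49 against Rb KO crypts and by 0.50 against control crypts. Cyp1b1, the other family 1 member tested, passed in no comparison, and its lowest adjusted p was 0.2, for a difference of -0.48 between Rb/Myc DKO and control crypts.

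Rb/Myc DKO villi had higher P450 levels than Rb KO villi, although Myc itself did not pass between these groups (-0.52, limma adjusted p = 0.143). Between Rb/Myc DKO and Rb KO villi 8 of 30 members were higher and 0 were lower (limma), or 26.7% of the members, against 8.52% of all genes in either direction, 6.56% higher and 1.96% lower. At an unadjusted p under 0.05, 11 members were higher and 1 was lower. The members' median difference was 0.19, against 0.00 over all genes. In 11 of the 30 members the Rb/Myc DKO arrays lay wholly above the Rb KO arrays, where 9.61% of all genes were apart in either direction. Without Rb/Myc DKO villi array 1, 7 of the 8 passed, and Cyp2a12 (0.55, limma adjusted p = 0.023 with all arrays) came to 0.46 with an adjusted p of 0.054. This comparison shares its Rb KO arrays with the one above, so the values of each are given side by side and no agreement between them is drawn.

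Cyp2c55 was at 10.93, 10.23, 10.68, 10.50 and 9.84 in Rb/Myc DKO villi, against the Rb KO values of 8.47, 9.12, 8.92, 9.76 and 9.35. The lowest Rb/Myc DKO array was just above the highest Rb KO array, and the difference was 1.31 ± 0.29 (limma adjusted p = 0.0145), or 1.19 without array 1 (adjusted p = 0.0342). Against control villi Cyp2c55 differed by -0.52, with an interval from -1.14 to 0.10 (adjusted p = 0.234). Cyp2c65 was at 13.66, 13.55, 13.65, 13.58 and 13.45 in Rb/Myc DKO villi, above all Rb KO arrays, and rose by 0.50 ± 0.10 (adjusted p = 0.00741), or 0.48 without array 1 (adjusted p = 0.0193). Cyp2c29 was at 9.50, 10.33, 10.38, 9.27 and 9.27 in Rb/Myc DKO villi, all above the highest Rb KO array at 8.78, and rose by 1.76 ± 0.41, or 3.39-fold (adjusted p = 0.0186), and by 1.82 without array 1 (adjusted p = 0.0297). Cyp2c23, an epoxygenase gene also written Cyp2c44, rose by 0.68 ± 0.19 (limma adjusted p = 0.0353), or 0.77 without array 1 (adjusted p = 0.0299). The last 3 genes differed from control villi by 0.05, 0.63 and 0.30, and none of these passed.

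Family 4 supplied the other higher genes. Cyp4b1, which encodes an enzyme found mostly outside the liver that acts on medium-chain fatty acids, was at 12.01, 12.33, 12.28, 11.95 and 11.95 in Rb/Myc DKO villi, at 10.27, 10.85, 10.83, 10.96 and 10.79 in Rb KO villi, and at 10.58, 10.90, 11.73, 10.72 and 11.33 in control villi. The Rb/Myc DKO arrays were above all 10 other arrays. The difference was 1.36 ± 0.19 against Rb KO villi, or 2.57-fold (limma adjusted p = 0.000913), and 1.05 ± 0.19 against control villi, or 2.07-fold (adjusted p = 0.00101). Both differences passed without array 1, at 1.39 and 1.07. Rb KO villi differed from control villi by -0.31 for this gene, with an interval from -0.72 to 0.09 (adjusted p = 0.222).

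Cyp4a31 belongs to a fatty acid omega-hydroxylase subfamily controlled by PPAR-alpha. Its values were 7.48, 7.82, 7.50, 8.09 and 7.38 in Rb/Myc DKO villi, 6.52, 6.94, 6.29, 6.60 and 6.78 in Rb KO villi, and 6.55, 6.89, 6.94, 6.64 and 7.30 in control villi. All Rb/Myc DKO arrays were above the others, and it rose by 1.03 ± 0.16 against Rb KO villi and by 0.79 ± 0.16 against control villi (limma adjusted p = 0.00209 and 0.00262). Without array 1 these came to 1.08 and 0.84 (adjusted p = 0.00378 and 0.00359). A second probe set of Cyp4a31 gave 0.30 (adjusted p = 0.083) and 0.31 (adjusted p = 0.0489). Cyp4f15 stood at 8.29, 8.36, 8.36, 8.48 and 8.02 in Rb/Myc DKO villi, above all Rb KO arrays, and rose by 1.04 ± 0.19 against them (limma adjusted p = 0.00527), with the same 1.04 without array 1 (adjusted p = 0.0109). Cyp4f13, at 10.54, 10.04, 9.79, 9.55 and 9.37 in Rb/Myc DKO villi, also lay above all Rb KO arrays, but its difference of 0.74 ± 0.24 missed the threshold (adjusted p = 0.0699).

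Rb/Myc DKO villi set against control villi showed 4 higher and 5 lower members (limma), or 30% of the members, against 19.3% of all genes in either direction, 12.9% higher and 6.32% lower. The members' median difference was -0.07, against -0.01 over all genes. The higher ones were Cyp4b1 and Cyp4a31, Cyp2c70, which makes muricholic acids in mouse liver, and Cyp4f14 at 0.34 ± 0.11 (adjusted p = 0.0496). Cyp2c70 was at 8.48, 7.36, 7.37, 7.34 and 7.44 in Rb/Myc DKO villi, against 7.13, 6.68, 7.01, 6.67 and 6.57 in control villi. Array 1, the one with high hepatocyte markers, was far above the other 4, which were still above all controls, and the difference was 0.78 ± 0.21 with it and 0.56 without it (adjusted p = 0.0145 in both). Lower genes were Cyp4v3 at -0.49 ± 0.08, Cyp3a25 at -0.38 ± 0.11, Cyp2c68 at -0.32 ± 0.09, Cyp2u1, a fatty acid hydroxylase gene, at -0.61 ± 0.18, and Cyp2s1, an epithelial P450, at -0.29 ± 0.09. Without array 1 the count was 3 higher and 3 lower. Cyp4v3, Cyp3a25 and Cyp2c68 still passed at -0.49, -0.47 and -0.35, whereas Cyp4f14 came to 0.36 (adjusted p = 0.056), Cyp2u1 to -0.48 (0.054) and Cyp2s1 to -0.27 (0.074). That array was not the only one on which calls hung. Of 27 alternative settings, the call was lost under 19 for Cyp4f14, 12 for Cyp2s1, 7 for Cyp3a25, 5 for Cyp2c68 and 4 for Cyp2u1. A clock index, made of genes of the circadian clock, separated these groups: it ran from 0.05 to 2.20 in Rb/Myc DKO villi and from -1.37 to -0.11 in control villi. With it as a covariate 5 members passed, 3 higher and 2 lower: Cyp2c23, Cyp4a31 and Cyp4b1, and Cyp2s1 and Cyp4v3. Cyp2u1 then came to -0.20 (adjusted p = 0.42), and the part of the time of day was not tested.

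**Figure D3:**
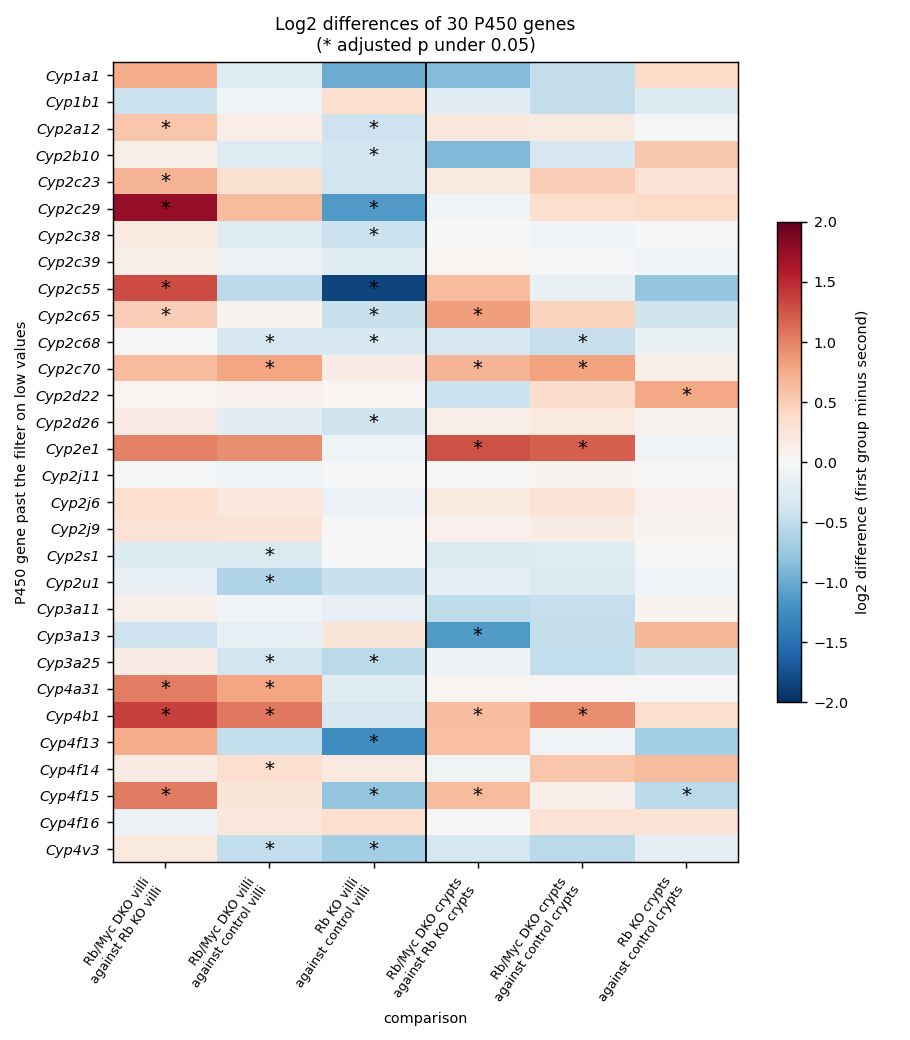
Log2 differences of the 30 tested P450 genes, in rows, for 3 comparisons in villi and 3 in crypts, in columns; red is higher and blue lower in the first-named group, and an asterisk marks a limma adjusted p under 0.05. In the column for Rb KO against control villi 12 asterisks stand on blue cells, and in the column for Rb/Myc DKO against Rb KO villi 8 stand on red cells.

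In crypts, Rb loss was accompanied by a difference in 2 of the 30 members. The members also spread more within groups there, with a median SD of 0.34 in crypts and 0.27 in villi, while that of all genes was 0.11 and 0.14. Only Cyp2d22, of the Cyp2d subfamily related to human CYP2D6, was higher and only Cyp4f15 was lower in Rb KO than in control crypts (limma), that is 2 of 30 or 6.67%, where 12.1% of all genes passed, 8.55% higher and 3.56% lower. The members' share was thus below that of all genes. Cyp2d22 was at 7.75, 7.85, 8.31, 8.05 and 8.61 in Rb KO crypts, against 7.85, 7.48, 7.51, 6.80 and 7.03 in control crypts. The groups overlapped at 1 control array, and the difference was 0.78 ± 0.20 (adjusted p = 0.0183), which a second probe set matched at 0.78 (adjusted p = 0.0142). Cyp4f15 was at 6.84, 7.29, 6.86, 6.83 and 6.82 in Rb KO crypts, against 7.22, 7.58, 7.43, 8.02 and 7.11 in control crypts, a fall of 0.54 ± 0.15 (adjusted p = 0.0291), with 1 Rb KO array above the 2 lowest controls. Rb KO animals 4 and 5 stood apart on the clock index, at -1.91 and -1.88 in crypts, against 0.12 to 0.85 in the other 3 Rb KO crypts. Without them neither gene passed: the Cyp2d22 difference was 0.64 (adjusted p = 0.109) and the Cyp4f15 difference -0.47 (adjusted p = 0.153). Cyp4f13 was again below all controls, by 0.68 ± 0.22, with an adjusted p of 0.0519, and Cyp2c55 differed by -0.78 ± 0.29 (adjusted p = 0.0916).

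Between Rb/Myc DKO and Rb KO crypts, 5 members were higher and 1 was lower (limma), or 20% of the members, against 14.2% of all genes, 5.72% higher and 8.44% lower. In 3 members the groups did not overlap, where 12.8% of all genes were apart. Cyp2e1 was at 7.52, 8.16, 8.88, 7.86 and 7.95 in Rb/Myc DKO crypts, at 6.57, 6.98, 6.83, 6.96 and 6.69 in Rb KO crypts, and at 7.31, 6.62, 7.14, 6.80 and 6.51 in control crypts. All 5 Rb/Myc DKO arrays were above all others, and array 1, in which 5 of 8 hepatocyte markers were highest, was the lowest of the 5. The differences were 1.27 ± 0.21 against Rb KO crypts, or 2.41-fold (limma adjusted p = 0.000843), and 1.20 ± 0.21 against control crypts (adjusted p = 0.000594). In villi, outside array 1, Cyp2e1 lay between 5.58 and 5.97 in Rb/Myc DKO arrays, within or near the 5.37 to 5.79 of the other genotypes. These villus values were below the filter value of 6.03, so low signal limits what could be seen of Cyp2e1 there.

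Cyp2c65 was at 12.72, 13.05, 12.58, 12.53 and 12.12 in Rb/Myc DKO crypts, against 11.40, 11.98, 11.58, 11.76 and 12.12 in Rb KO crypts. The lowest Rb/Myc DKO array and the highest Rb KO array were almost level, and the difference was 0.83 ± 0.16 (limma adjusted p = 0.00346). Cyp2c70 was at 7.84, 8.76, 8.38, 8.55 and 8.24 in Rb/Myc DKO crypts, against 7.32, 7.71, 7.62, 7.76 and 7.92 in Rb KO crypts, a rise of 0.69 ± 0.17 (adjusted p = 0.0134). Array 1 was again the lowest Rb/Myc DKO value and the only one inside the Rb KO range. Cyp4b1 rose by 0.62 ± 0.18 (adjusted p = 0.0298) and Cyp4f15 by 0.64 ± 0.15 (adjusted p = 0.0114). Cyp3a13 was the lower gene, at 11.71, 10.94, 10.26, 10.06 and 9.87 in Rb/Myc DKO crypts, against 11.57, 11.51, 11.74, 11.47 and 12.25 in Rb KO crypts, with array 1 inside the Rb KO range and the other 4 below it. Its difference was -1.14 ± 0.34 (limma adjusted p = 0.0371), and the call was lost under 12 of 27 alternative settings, with values from -1.42 to -0.67, the last when the crypt score entered as a covariate (adjusted p = 0.322).

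**Figure D4:**
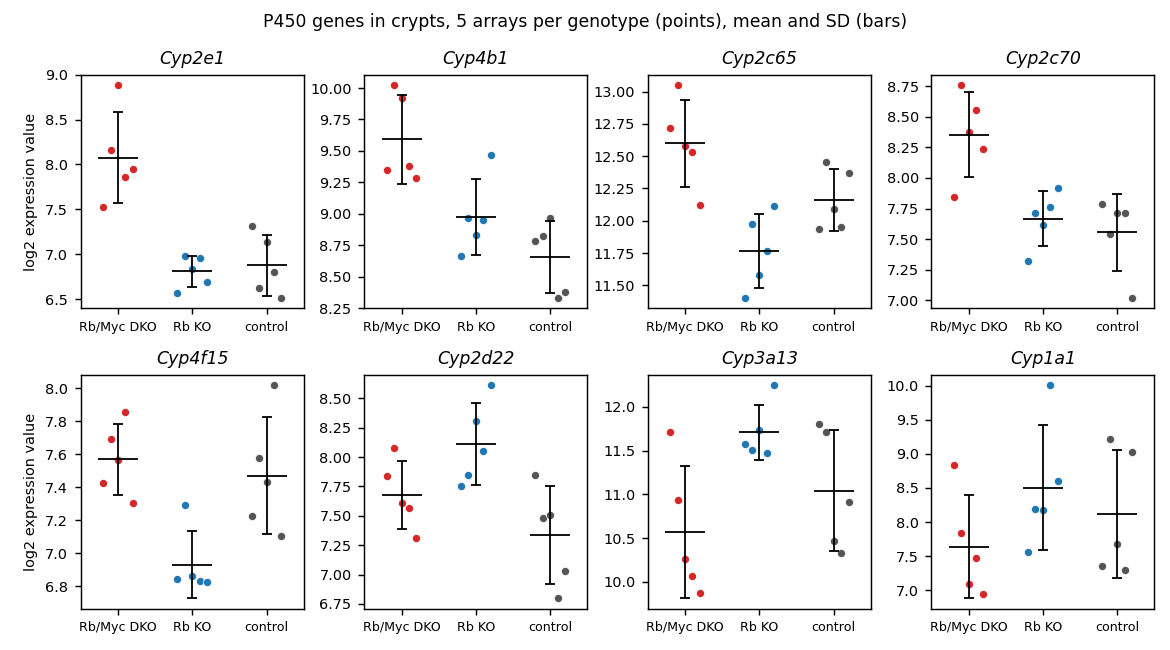
Log2 expression values of 8 P450 genes in crypts, with 1 point per array, and the mean and SD of 5 arrays per genotype as bars. Cyp2e1 lies between 7.52 and 8.88 in Rb/Myc DKO crypts, above all Rb KO and control arrays, while Cyp3a13 and Cyp1a1 spread over more than 1 log2 unit within a genotype; each panel has its own axis.

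Against control crypts, Rb/Myc DKO crypts had 3 higher members and 1 lower (limma), or 13.3% of the members, with 23.3% of all genes passing, 12.7% higher and 10.6% lower. Besides Cyp2e1, the higher genes were Cyp4b1 at 0.93 ± 0.18 and Cyp2c70 at 0.80 ± 0.17 (adjusted p = 0.00125 and 0.00276), both without overlap, and Cyp2c68 fell by 0.46 ± 0.13 (adjusted p = 0.0191). The enterocyte marker score, a mean log2 deviation of 8 genes, ran from -0.16 to 0.32 in Rb/Myc DKO crypts, from -0.12 to 0.59 in Rb KO crypts and from -0.81 to 0.28 in control crypts. With that score as a covariate, 3 members were higher and 6 lower between Rb/Myc DKO and control crypts. For that fit the share of all genes is not given here. The higher genes Cyp2e1, Cyp4b1 and Cyp2c70 were the same at 1.21, 0.79 and 0.75, and Cyp2b10, Cyp2u1, Cyp3a13, Cyp3a25 and Cyp4v3 joined Cyp2c68 among the lower ones. In villi the enterocyte score stayed between -0.08 and 0.13 in all groups. The crypt marker score, made likewise of 9 genes, spread more there. It ran from -0.20 to 0.99 in Rb/Myc DKO, from -0.51 to 0.78 in Rb KO and from -1.33 to 0.92 in control villi, with medians of 0.16, 0.08 and -0.39. With it as a covariate Cyp2a12 and Cyp2c29 lost the call between Rb KO and control villi (limma adjusted p = 0.0539 and 0.0927). The part of crypt tissue in the villus samples was not tested.

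The differences themselves were compared between tissues, first in a fit that ignores the pairing of villus and crypt arrays of the same number. The Rb KO minus control difference was more negative in villi than in crypts for 3 of 30 members, or 10%, where 16.2% of all genes passed, 8.03% higher and 8.13% lower (limma interaction): Cyp2c29 (-1.51 ± 0.51, adjusted p = 0.0403), Cyp2d22 (-0.74 ± 0.24, adjusted p = 0.0367) and Cyp2c38 (-0.39 ± 0.13, adjusted p = 0.0427). These calls lie near the threshold, and they were lost under 12 of 37 alternative settings for Cyp2c29, 9 of 37 for Cyp2d22 and 13 of 36 for Cyp2c38. For Cyp2d22 the 2 differences were 0.04 in villi and 0.78 in crypts. With villus and crypt samples of the same number treated as 1 animal, 5 members passed, the 2 added being Cyp2c55 (-1.05, adjusted p = 0.0253) and Cyp4b1 (-0.63, adjusted p = 0.0436). For the fits with this pairing the share of all genes is not given here, so the larger count is no result about the members. The Rb/Myc DKO minus Rb KO difference was more positive in villi for 2 members, Cyp2c29 (1.81 ± 0.51, adjusted p = 0.0418) and Cyp4a31 (1.00 ± 0.19, adjusted p = 0.00502), where 3.73% of all genes passed, 2.65% higher and 1.08% lower. The Cyp2c29 call was lost under 12 of 37 alternative settings. Without array 1 of Rb/Myc DKO villi, Cyp2c29 (1.87) and Cyp4a31 (1.04) passed, and Cyp2e1 did too at -1.12 (adjusted p = 0.0148). With the animal as a block Cyp4b1 passed as well (0.75, adjusted p = 0.0342). Cyp2c29 and Cyp4a31 were near the filter in crypts, with group means of 5.81 to 6.19 and 6.07 to 6.10, so low signal limits what could be seen of either gene there. Outside array 1 of Rb/Myc DKO villi, Cyp2e1 lay between 5.37 and 5.97 in villi, below the filter value of 6.03. Low signal thus limits what could be seen of Cyp2e1 in villi.

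Most members had higher values in the villus table, 24 of 30 by the mean of the 3 group means, a description only, because the array medians differ between the tissues and how each was normalized is not given. Among the 24 members below the filter, a fit without it called 2 genes, and the share of all genes called in that fit is not given here. Cyp2r1, a vitamin D 25-hydroxylase gene, was at 5.66, 5.83, 5.68, 5.63 and 5.51 in Rb/Myc DKO villi, at 4.90, 4.14, 4.65, 5.03 and 4.35 in Rb KO villi, and at 4.75, 5.42, 5.50, 4.86 and 5.06 in control villi. The Rb/Myc DKO arrays were above all others, by 1.04 ± 0.17 against Rb KO villi and 0.54 ± 0.17 against control villi (limma adjusted p = 0.00287 and 0.043). Its array 1 value lay among those of the other 4 Rb/Myc DKO villi. Cyp2r1 was also lower in Rb KO than in control villi by 0.50 ± 0.17 (adjusted p = 0.039) and higher in Rb/Myc DKO than in control crypts by 0.38 ± 0.11 (adjusted p = 0.0348). Cyp2b9 was lower in Rb KO than in control villi by 0.37 ± 0.09 (adjusted p = 0.00681). Many of the rest stayed flat near the lowest values of the arrays, such as Cyp4a14, between 4.15 and 4.41 in Rb KO villi and between 4.19 and 4.51 in control villi.

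**Figure D5:**
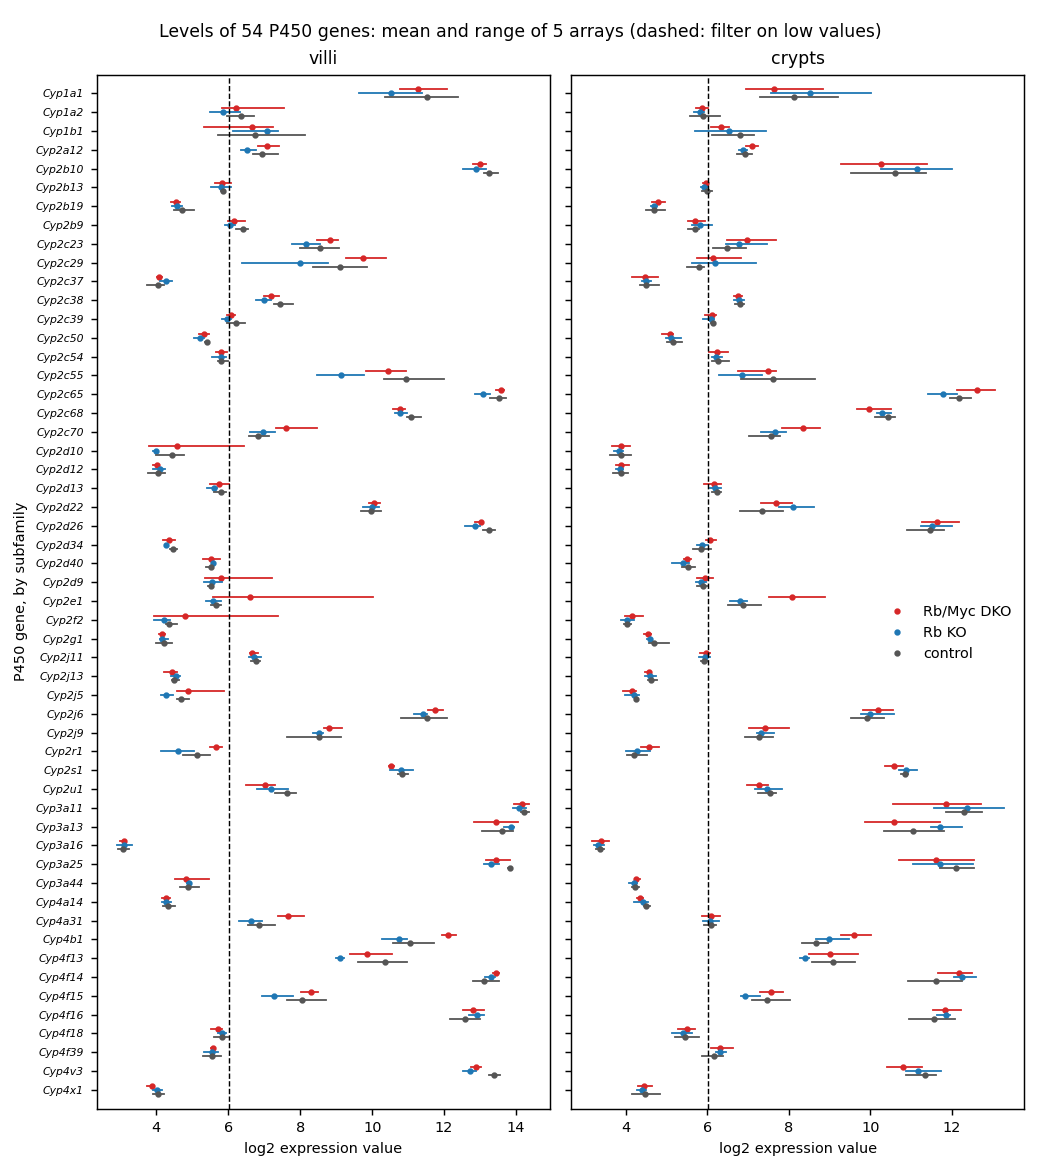
Log2 expression values of all 54 P450 genes, ordered by subfamily, in villi (left) and crypts (right). Points are means and lines the range of 5 arrays per genotype, the dashed line is the filter on low values at 6.03, and the long Rb/Myc DKO lines of Cyp2e1, Cyp2f2, Cyp2d9 and Cyp2d10 in villi come from array 1.

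Genes that act with the P450s were counted from lists. Of 23 receptors and transcription factors tested, 6 were lower and 1 higher in Rb KO than in control villi (limma). Of all genes 17.5% were lower and 16.8% higher, 34.3% in either direction. Vdr, the vitamin D receptor, averaged 11.91 ± 0.39 in Rb KO villi and 12.55 ± 0.34 in control villi (SD, n = 5 each; limma adjusted p = 0.0119). Nr1i3, which encodes CAR, averaged 10.05 ± 0.23 in Rb KO villi and 10.42 ± 0.20 in control villi (SD, n = 5 each; limma adjusted p = 0.0132). Cebpa and the coactivator Ppargc1a fell by 0.42 and 0.43. The other 2 lower genes, named after their values were seen, were Nr1i2, which encodes PXR, at -0.46 ± 0.17 and Ppara at -0.60 ± 0.20 (limma adjusted p = 0.0476 and 0.0262). Ahr and Hnf4a passed in no comparison. Between Rb/Myc DKO and Rb KO villi 0 of the 23 passed (limma), with or without array 1. With all arrays there were 2 higher and 1 lower at an unadjusted p under 0.05. Against control villi, Rb/Myc DKO villi had 4 lower and 1 higher, where 6.32% of all genes were lower and 12.9% higher. These were the clock-controlled P450 regulators Dbp at -1.87 and Tef at -0.75, Vdr at -0.60, Cebpa at -0.45 and the corepressor gene Nr0b2 at 0.79. Without array 1, 3 were lower and 0 higher, with Tef at -0.55 (adjusted p = 0.101) and Nr0b2 at 0.68 (adjusted p = 0.0633).

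PPAR-alpha targets outside the P450 family, mostly fatty acid oxidation genes, numbered 15 tested, of which 9 were lower in Rb KO than in control villi and 8 were higher in Rb/Myc DKO than in Rb KO villi (7 without array 1), where 17.5% and 6.56% of all genes passed in those directions. Between Rb/Myc DKO and control villi 2 were higher and 2 lower, with or without array 1. With all arrays, 12.9% of all genes were higher and 6.32% lower in that comparison. Acaa1b, a peroxisomal thiolase gene, averaged 12.14 ± 0.35 in Rb/Myc DKO villi, 10.94 ± 0.23 in Rb KO villi and 11.87 ± 0.16 in control villi (SD, n = 5 each). Ehhadh, of peroxisomal beta-oxidation, fell by 0.89 in Rb KO villi, and in Rb/Myc DKO against Rb KO villi the thioesterase gene Acot1 rose by 2.04 and the pantetheinase gene Vnn1 by 1.64. The list's medians in those comparisons were -0.45 and 0.35. In crypts 3 of the 15 were lower in Rb KO than in control crypts and 4 were higher in Rb/Myc DKO than in Rb KO crypts. Of all genes 3.56% and 5.72% passed in those directions, and Acot1 differed by -1.02 and 1.31. PXR and CAR targets outside the family were split, with 4 lower and 2 higher of 12 in Rb KO villi, where 17.5% and 16.8% of all genes passed in those directions, among them the sulfotransferase gene Sult1d1 at -0.52 and the carboxylesterase gene Ces2a at 0.40.

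P450 partners and haem supply genes were split. Of 16 tested, 2 were higher and 2 lower in Rb KO than in control villi, a share below the 34.3% of all genes that passed. Between Rb/Myc DKO and Rb KO villi 3 were higher and 0 lower, where 6.56% of all genes were higher and 1.96% lower. Without array 1, 2 were higher and 1 lower. Cyb5r1, a cytochrome b5 reductase gene, averaged 9.05 ± 0.27 in Rb/Myc DKO villi, 9.23 ± 0.27 in Rb KO villi and 7.55 ± 0.40 in control villi (SD, n = 5 each), and rose by 1.68 in Rb KO and 1.50 in Rb/Myc DKO villi against controls. Of the haem synthesis genes in Rb KO villi, Ppox rose by 0.65 and Fech, the last step, fell by 0.40 (limma adjusted p = 0.00019 and 0.000214). Alad, an early step, rose by 0.62 in Rb/Myc DKO against Rb KO tissue in both villi and crypts (adjusted p = 0.0184 and 0.00351), and by 0.61 in villi without array 1 (adjusted p = 0.0363). In that crypt comparison Fech rose by 0.29, while Alas1, the first step, fell by 0.40 and Cpox fell by 0.57 (limma adjusted p = 0.0271, 0.0146 and 0.0212). Of 11 P450 genes tested outside families 1 to 4, Cyp27a1, a sterol 27-hydroxylase gene, fell by 0.67 in Rb KO villi, while Cyp20a1 and Cyp39a1 rose by 0.57 and 0.43.

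Markers of some other cell types moved with the villus comparisons, and those of others mostly did not. Of 9 T cell and intraepithelial lymphocyte markers, 7 were lower in Rb KO than in control villi and 5 higher in Rb/Myc DKO than in Rb KO villi, with scores of 0.10 to 0.41 in Rb/Myc DKO, -0.68 to -0.06 in Rb KO and -0.12 to 0.47 in control villi. Of 7 enteroendocrine markers, 3 were lower and 4 higher in the same comparisons. Tuft cell markers (5 tested) passed in neither. For goblet cells (5 tested), macrophages and dendritic cells (5) and mesenchyme (7), 0 passed in the first and 1 was higher in the second, in each list. Of 2 endothelium markers 1 was lower in the first. These marker counts include array 1 of Rb/Myc DKO villi. Of all genes 17.5% were lower in Rb KO than in control villi and 6.56% higher in Rb/Myc DKO than in Rb KO villi. Exocrine pancreas markers reached a score of 1.64 in Rb/Myc DKO villi and 3.09 in Rb/Myc DKO crypts, against highest values of 0.19 and 1.52 in control villi and crypts. The part of these cells in the P450 differences was not tested. Of 8 enterocyte markers, 1 passed between Rb KO and control villi, where it was lower, and with the enterocyte score as a covariate 11 members remained lower and Cyp4f16 was higher at 0.47 (adjusted p = 0.00451).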

How the data were processed

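Total RNA from 30 tissue samples was hybridised to arrays of 45101 probe sets. The deposited values are log2 expression values made by the authors, and how they were normalized or summarized is not given in the sources used here, nor is an aligner or build. Array medians were 6.28 to 6.34 in villi and 6.67 to 6.73 in crypts, so the tissues were treated as normalized separately and levels were not tested between them. Symbols came from the platform annotation (34958 probe sets with 1 symbol, 932 with several, 9211 with none). All 54 members had the same symbol in RefSeq, and 4 probe sets that name several P450 genes were left out. Testing was limited to 12736 genes, those whose mean lay over the 30th percentile of gene means.

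limma 3.58.1 (R 4.3.3) compared the 3 genotypes in a model per tissue, two-sided, with Benjamini-Hochberg adjustment over every gene tested and a threshold of 0.05. Interactions were fitted over all arrays, in the main fit without a block for the animal. The fits were tested on simulated data. The number of arrays limits the precision.

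Members and gene lists were chosen with earlier results of these data known. Genes named were the 8 called members of largest difference in each comparison, members called in an interaction, the top member of each subfamily, and the 4 genes of smallest p in each list and comparison. Alternatives were the filter, other probe sets, quantile normalization, limma settings, threshold, covariates (sex from Xist, crypt, clock and enterocyte scores), left-out arrays and a block. The enterocyte covariate was chosen after seeing the data. As a check of pairing, the deviations of a villus and a crypt array that share genotype and number were correlated, with r between 0.26 and 0.58 in 15 of 15 pairs. Such a pair was taken as 1 animal only in the block alternative of the interactions. The main interaction fit ignored this pairing and treated the arrays as independent. RefSeq promoters have no entry here for 11 members.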

Additional observations from a re-analysis of the deposited data

Results flagged for a closer look

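In Rb/Myc DKO villi array 1, 6 P450 genes stood apart from the other 4 arrays of the group by more than the 95% critical gap: Cyp2e1 at 10.03, Cyp2c70 at 8.48, Cyp1a2 at 7.55, Cyp2f2 at 7.37, Cyp2d9 at 7.22 and Cyp2d10 at 6.44. All 8 hepatocyte markers were also above the other villus arrays there, with Alb at 11.65, and the part of liver transcripts was not tested.

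Single values set apart from the other 4 of their group elsewhere were Cyp1b1 at 6.12 in Rb KO villi 5 and 6.11 in control crypts 1, and Cyp2c38 at 7.79 in control villi 4. The same held for Cyp2c55 at 6.75 in Rb/Myc DKO crypts 5, Cyp2j6 at 10.58 in Rb KO crypts 5, Cyp4b1 at 10.27 in Rb KO villi 1 and Cyp4f15 at 7.29 in Rb KO crypts 2. In all, 13 of 180 groups of 30 genes were so set apart, where chance alone sets apart about 1 in 20. The genes Cyp1a2, Cyp2d9, Cyp2d10 and Cyp2f2, below the filter on low values, were among the 30 because they were high in Rb/Myc DKO villi 1, so their 4 groups were not a free choice.

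Differences that were themselves different between tissues, by the limma interaction without the animal as a block, were the Rb KO minus control ones of Cyp2c29 (-1.51), Cyp2d22 (-0.74) and Cyp2c38 (-0.39), and the Rb/Myc DKO minus Rb KO ones of Cyp2c29 (1.81) and Cyp4a31 (1.00). With the animal as a block, Cyp2c55 and Cyp4b1 joined the former and Cyp4b1 the latter.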

How the results depend on the processing

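Of 46 differences called in single genes, 22 passed under every setting run, 24 lost the call under 1 or more, and 0 reversed. At an adjusted p under 0.01 the members called were 4 between Rb/Myc DKO and Rb KO villi, 3 between Rb/Myc DKO and control villi, 2 between Rb/Myc DKO and Rb KO crypts, 0 between Rb KO and control crypts, and 0 and 1 in the interactions of Rb and of Myc loss. The clock index as a covariate gave 5 between Rb/Myc DKO and control villi, sex as a covariate 5 between Rb KO and control crypts, and the enterocyte score 9 between Rb/Myc DKO and control crypts. A filter at the 50th percentile and limma's trend and robust options each gave 1 in the Myc interaction. Without Rb KO animals 4 and 5 the counts were 0 between Rb KO and control crypts and 1 in the Rb interaction. The causes were not tested. For none of the alternative settings is the share of all genes called given here.

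Leaving out 1 array at a time gave 9 to 16, 6 to 9 and 5 to 10 members for the villus comparisons Rb KO with control, Rb/Myc DKO with Rb KO and Rb/Myc DKO with control. It gave 1 to 4, 4 to 7 and 4 to 6 for the same crypt comparisons, and 0 to 3 and 1 to 3 for the Rb and Myc interactions. The lowest villus counts of 5 came without control villi 2 or without Rb/Myc DKO villi 5.

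Across genotypes the labels give only a shared number. Same-numbered arrays correlated over 0.1 in 8 of 15 cases in villi and 4 of 15 in crypts (r from -0.29 to 0.43), and an array matched its own number best in 7 and 4 of them, so the numbers were not taken as pairs, though some, as number 2 in villi, did deviate together. With the replicate number as a block within a tissue, 15, 8 and 7 members passed in villi and 2, 7 and 5 in crypts, in the same order. With the animal as a block, the interactions gave 5 for Rb loss and 3 for Myc loss.

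Signal limits the rest: 24 of 54 members lay below the filter on low values.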
